A study of Mus musculus with 14 samples.

Results

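Brain tissue of mice with an intracerebral haemorrhage (ICH) was compared with brain tissue of sham-operated mice, gene by gene, in RNA level and in N6-methyladenosine (m6A). All samples with the sham or ICH treatment label were taken, which gave 10 of the 14 samples of the study: 3 input and 3 immunoprecipitated (IP) libraries from sham and 2 input and 2 IP libraries from ICH. Of the 7 input libraries of the study, 5 are thus from sham or ICH. In m6A sequencing, an antibody enriches m6A-bearing fragments of poly(A) RNA (IP), which are sequenced beside unselected fragments (input). The haemorrhage was made with autologous blood, the mouse's own, per the labels. Another group of haemorrhage mice, treated with acupuncture at the GV20 point for 7 days, gave 2 further input libraries, which entered the model only through the filter on low values and the estimate of spread. Strain, age, sex, brain region, side and the time after the haemorrhage are not given in the sources used here. Nor do the labels say that replicates were separate mice, so p-values measure the spread between these samples, which may be technical.

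Blood that enters brain tissue brings haemoglobin, whose haem is broken down by haem oxygenase into iron, biliverdin and carbon monoxide. Microglia and macrophages that enter from the blood take up red cells and debris, while astrocytes around the lesion become reactive and form a border. m6A is the most common internal modification of mRNA; it is written by a complex around METTL3 and METTL14, removed by FTO and ALKBH5, bound by YTH-domain proteins, and lies mostly near stop codons and in 3′ UTRs.

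RNA level was deposited as FPKM (fragments scaled by transcript length and by mapped fragments of the library) for each input library, so the read depth behind each value is unknown. The ICH libraries differed from each other more than the sham libraries did: across tested genes Pearson's r was 0.942 between ICH replicates 1 and 2 and 0.984 to 0.988 between sham libraries (across genes, which are not independent replicates). ICH replicate 2 also listed fewer genes above 0 (23495) than any other library (24028 to 24746). Two-sided tests were made with limma on log2(FPKM + 1), so fold changes of genes near or below 1 FPKM are understated. The call was a Benjamini-Hochberg adjusted p under 0.05, and all adjusted p-values of RNA below are limma's. As a call can rest on 1 library, the fit was repeated without each of the 7 input libraries in turn, and a call is described as held when it passed in all 7 of these fits. A number alone in brackets after a gene is its log2 fold change of RNA, ICH over sham, and libraries named as left out were left out one at a time.

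Most genes that changed in RNA were higher in ICH. Of 13666 genes whose mean reached 1 FPKM, 677 (4.95%) were higher in ICH and 99 (0.724%) were lower, while the median log2 fold change over all tested genes was -0.01. In the stricter set, 346 genes (2.53%) were held as higher and 15 (0.110%) as lower. These percentages are the background for every group count of RNA below. The groups of genes were chosen with earlier results of these data known, so a count above this background is a description and not a test. The counts were 363 higher and 24 lower without sham replicate 1, 383 and 47 without sham replicate 2, and 391 and 19 without sham replicate 3. A gene low in sham could pass the filter only through the other libraries, so the group counts below describe only genes that could be tested. With the minimum raised to 5 FPKM, 215 genes were higher and 35 lower. Without ICH replicate 1 the fit called 2499 higher and 2713 lower. That fit compares ICH replicate 2 alone with sham and assumes that it varies like the other groups, and its counts are given below where a group's count moved by more than 1.5 times.

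**Figure D1:**
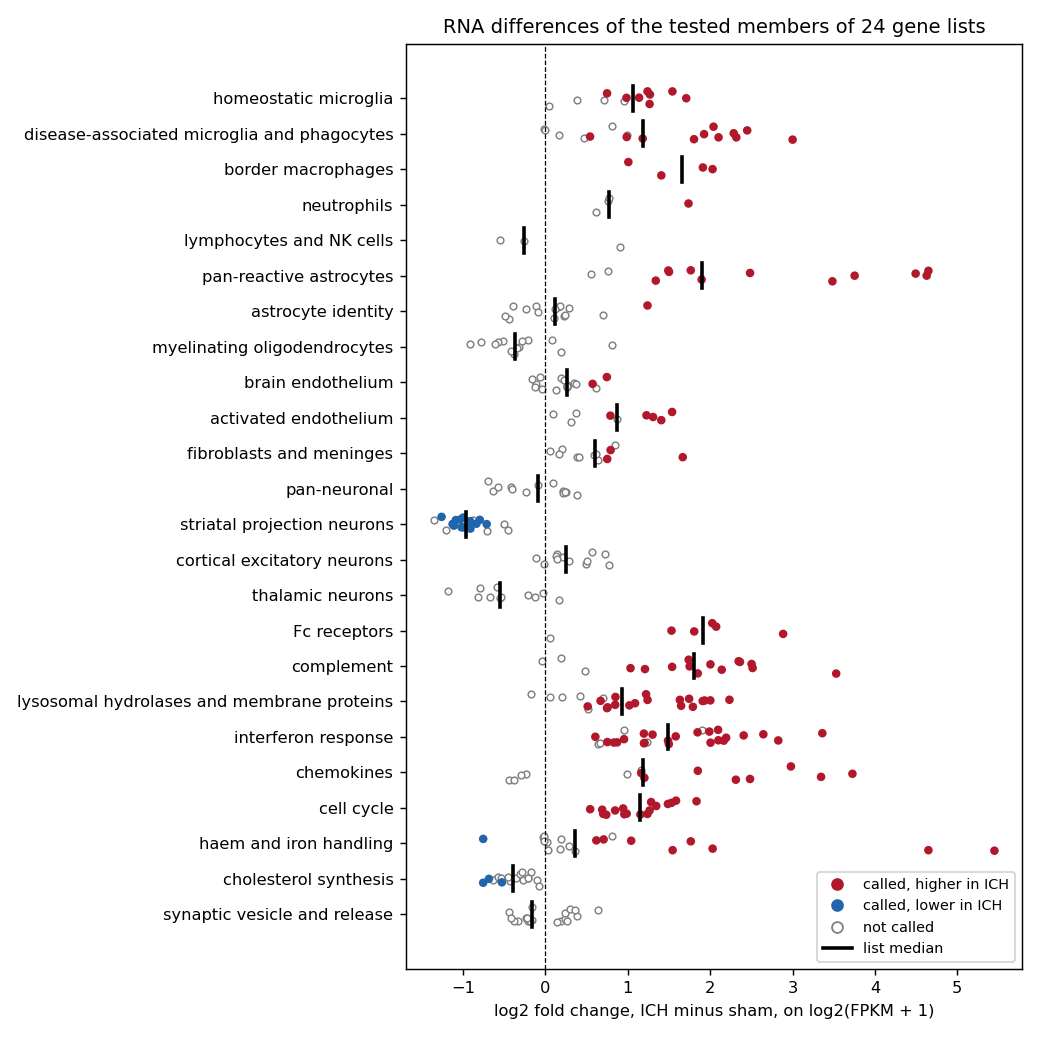
Log2 fold change of RNA, ICH minus sham on log2(FPKM + 1), for the tested members of 24 of the cell type and pathway lists. Each point is a gene, filled red if called higher and filled blue if called lower by limma, open if not called, and the black vertical mark of a list is its median. The phagocyte, Fc receptor, complement, interferon, chemokine and cell cycle medians lie above 1, the striatal median lies at -0.96, and the pan-neuronal, cortical, thalamic, myelin and synaptic vesicle lists hold no filled point.

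Genes of microglia and macrophages rose. In bulk tissue such as this, more cells of a type and more RNA per cell cannot be told apart. Of 12 tested genes that mark resting microglia, 8 were called higher and 5 held (median log2 fold change 1.06). The count was 5 with sham replicate 1, 2 or 3 left out. The summed level of all 13 listed genes was 103 to 115 FPKM in sham and 239 to 272 FPKM in ICH. Fcrls, an Fc receptor-like protein of microglia, had 6.91, 6.86 and 7.88 FPKM in sham and 33.0 and 20.2 FPKM in ICH (log2 fold change 1.71 ± 0.25 (SE), adjusted p = 0.00998). Csf1r, the receptor through which microglia and macrophages receive their survival signal, had 11.2, 12.1 and 13.4 FPKM in sham and 33.3 and 28.4 FPKM in ICH (log2 fold change 1.26 ± 0.11 (SE), adjusted p = 0.00136). For both genes the ICH libraries lay above all sham libraries, and Fcrls was higher in ICH replicate 1 than in replicate 2. Sall1, a transcription factor of resident microglia, was not called (log2 fold change 0.95, adjusted p = 0.166).

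Genes of activated, lipid-handling phagocytes gave 11 calls among 17 tested, 10 of them held (median 1.18). Cd68, a lysosomal glycoprotein of phagocytes, had 5.15, 6.28 and 5.997 FPKM in sham and 39.1 and 72.7 FPKM in ICH (log2 fold change 3.00 ± 0.24 (SE), adjusted p = 0.000866). Cst7, an inhibitor of cathepsins, had 0, 0.0418 and 0 FPKM in sham and 3.59 and 4.57 FPKM in ICH (log2 fold change 2.32 ± 0.12 (SE), adjusted p = 0.000199). Ch25h, which makes 25-hydroxycholesterol, had 0.27, 0.054 and 0.109 FPKM in sham and 4.17 and 4.99 FPKM in ICH (log2 fold change 2.29 ± 0.13 (SE), adjusted p = 0.000298). All sham libraries had these genes at low levels and both ICH libraries were several times higher, with no overlap. Axl, a receptor for dying cells, rose less (log2 fold change 0.54, adjusted p = 0.0416) and was not called without sham replicate 1, 2 or 3 or acupuncture replicate 1 or 2. Cd9 (log2 fold change 0.81, adjusted p = 0.0828) and Ccl6 (log2 fold change 0.99, adjusted p = 0.0526) were not called.

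All 4 tested genes of macrophages at vessels and meninges rose, and 3 held; the other 6 of the 10 listed were too low to test. The count describes only genes that could be tested, and Pf4 passed the filter through the ICH and acupuncture libraries. Pf4, platelet factor 4, had 0.628, 0.702 and 0.665 FPKM in sham and 4.79 and 6.98 FPKM in ICH (log2 fold change 2.03 ± 0.15 (SE), adjusted p = 0.00074). Stab1, a scavenger receptor, had 1.11, 1.04 and 1.18 FPKM in sham and 7.94 and 6.04 FPKM in ICH (log2 fold change 1.91 ± 0.12 (SE), adjusted p = 0.000385). Cbr2, a carbonyl reductase (log2 fold change 1.01, adjusted p = 0.0243), was not called without sham replicate 1 or 2 or ICH replicate 2. The summed level of all 10 listed genes was 3.32 to 4.29 FPKM in sham and 21.2 to 21.4 FPKM in ICH, so the groups did not overlap.

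Markers of other blood leukocytes were mostly near 0. Of 10 monocyte genes only 2 could be tested and neither was called (1 at an unadjusted p under 0.05 in limma); Chil3, a chitinase-like protein, had 0.0955, 0.36 and 0.562 FPKM in sham and 3.87 and 1.28 FPKM in ICH (log2 fold change 1.33, adjusted p = 0.0654), and 1 gene was called without ICH replicate 1 or ICH replicate 2. Of 12 neutrophil genes 4 could be tested, Ly6g was listed at 0 in all 5 libraries, and Csf3r, the receptor for granulocyte colony-stimulating factor, rose and held (1.20, 1.40 and 1.24 FPKM in sham and 5.65 and 7.56 FPKM in ICH; log2 fold change 1.73 ± 0.13 (SE), adjusted p = 0.000672). The neutrophil count was 3 with ICH replicate 1 or acupuncture replicate 1 or 2 left out. Of 14 lymphocyte genes 3 could be tested and none was called, with 2 at an unadjusted p under 0.05 in limma and 1 called in each direction without ICH replicate 1.

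Outside the lists the 3 largest held increases were those of Lyz2, Ifi30 and Cd52. Lyz2, the lysozyme of macrophages and neutrophils, had 6.40, 7.39 and 8.20 FPKM in sham and 107 and 178 FPKM in ICH (log2 fold change 4.06 ± 0.21 (SE), adjusted p = 0.00021). Ifi30, a thiol reductase of antigen-processing compartments, had 1.83, 1.20 and 1.68 FPKM in sham and 32.8 and 37.5 FPKM in ICH (log2 fold change 3.82 ± 0.14 (SE), adjusted p = 5.47e-05). Cd52, a short glycoprotein of leukocytes, had 1.87, 0.826 and 1.39 FPKM in sham and 20.9 and 36.0 FPKM in ICH (log2 fold change 3.61 ± 0.26 (SE), adjusted p = 0.000613). In each the lower ICH library was far above the highest sham library, although reads of Lyz2 may be shared with Lyz1. Arg1, the arginase of alternatively activated macrophages, had 0.214, 0.309 and 0.325 FPKM in sham and 8.31 and 7.22 FPKM in ICH (log2 fold change 2.77 ± 0.32 (SE), adjusted p = 0.00354). Adgre1, which encodes the macrophage antigen F4/80, had 1.32, 1.43 and 1.31 FPKM in sham and 13.3 and 14.03 FPKM in ICH (log2 fold change 2.64 ± 0.09 (SE), adjusted p = 4.2e-05). Saa3, an acute-phase amyloid protein, differed most between the ICH libraries of these genes (2.60, 2.67 and 2.88 FPKM in sham and 62.7 and 26.1 FPKM in ICH; log2 fold change 3.48 ± 0.32 (SE), adjusted p = 0.00138). Gpr84, a receptor for medium-chain fatty acids, and Lgals9, galectin-9, rose by 2.50 and 2.47 on the log2 scale. Ms4a6c and Ms4a6d also rose (2.70 and 2.81), but they are close relatives between which reads may be shared, so their separate values are uncertain.

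Of 24 lysosomal genes, 18 rose and 13 held (median 0.94). Ctsc, the dipeptidyl peptidase cathepsin C, had 1.07, 1.67 and 1.20 FPKM in sham and 9.43 and 10.2 FPKM in ICH (log2 fold change 2.23 ± 0.14 (SE), adjusted p = 0.000385). Grn, progranulin, had 11.1, 11.0 and 11.4 FPKM in sham and 48.4 and 47.1 FPKM in ICH (log2 fold change 2.00 ± 0.09 (SE), adjusted p = 0.000104). Ctsz, cathepsin Z, rose by 1.93 and Laptm5, a lysosomal membrane protein of haematopoietic cells, by 1.91 on the log2 scale. Ctsa, cathepsin A, rose less (0.85) and was not called without sham replicate 1, 2 or 3. Lamp1, a membrane protein of lysosomes in nearly all cells, was not called (83.7, 75.5 and 85.7 FPKM in sham and 99.5 and 139 FPKM in ICH; log2 fold change 0.52, adjusted p = 0.131). Of the vacuolar proton pump, limma called none of the 20 tested subunits whose symbols begin with Atp6 (2 at an unadjusted p under 0.05), beside 4 higher and 8 lower without ICH replicate 1. Tcirg1, which encodes a further subunit and was named after its value was seen, rose and held (0.97).

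Receptors that bind antibody-coated and dying material followed the same direction. Of 6 Fc receptor genes, 5 rose and held (median 1.92); Fcer1g, the signalling chain shared by several of them, had 6.58, 7.84 and 6.55 FPKM in sham and 40.5 and 82.5 FPKM in ICH (log2 fold change 2.89 ± 0.28 (SE), adjusted p = 0.00168). Fcgrt, which recycles antibody in endothelial cells, was not called (0.06, but called lower at -0.45 without ICH replicate 1 and higher at 0.57 without ICH replicate 2). Of 13 phagocytic receptors and integrins, 8 rose and 4 held, and the count was 4 with sham replicate 1 or 2 left out. Itgb2, the shared beta chain of leukocyte integrins, had 1.54, 1.29 and 1.49 FPKM in sham and 9.82 and 13.1 FPKM in ICH (log2 fold change 2.34 ± 0.15 (SE), adjusted p = 0.000385). Msr1, a scavenger receptor for modified lipoprotein, had 0.0604, 0.15 and 0.06 FPKM in sham and 2.38 and 2.39 FPKM in ICH (log2 fold change 1.64 ± 0.14 (SE), adjusted p = 0.00126). Mertk, an uptake receptor that astrocytes also carry, was not called (6.33, 7.36 and 5.97 FPKM in sham and 8.51 and 9.81 FPKM in ICH; log2 fold change 0.43, adjusted p = 0.117). Of 14 C-type lectins and Siglecs, 7 rose and 4 held, with 4 with sham replicate 1 or 3 left out; Clec4n, a receptor for fungal sugars, rose by 2.09 and Clec7a, dectin-1, by 1.80.

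Of 16 complement genes, 13 rose and 11 held, with a median log2 fold change of 1.80. C3, the component on which all 3 complement routes converge, had 0.313, 0.176 and 0.333 FPKM in sham and 15.5 and 12.1 FPKM in ICH (log2 fold change 3.53 ± 0.27 (SE), adjusted p = 0.000816). C4b had 2.73, 2.76 and 2.74 FPKM in sham and 26.2 and 15.8 FPKM in ICH (log2 fold change 2.52 ± 0.22 (SE), adjusted p = 0.00126), and C3ar1, the receptor for the C3a fragment, had 0.525, 0.609 and 0.556 FPKM in sham and 5.48 and 8.95 FPKM in ICH (log2 fold change 2.36 ± 0.18 (SE), adjusted p = 0.000786). No ICH value of the 3 genes overlapped with sham, and C4b may share reads with C4a. C1qa (2.00) and C1s1 (1.03), both of the C1 complex, were called but lost without sham replicate 1, 2 or 3 or acupuncture replicate 1 or 2. Cd55, which protects cells from complement, was not called (log2 fold change 0.19, adjusted p = 0.482).

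Genes of both antigen presentation pathways rose. Of 15 MHC class I pathway genes, 8 rose and 5 held (median 0.78), and the count was 5 with sham replicate 1 or 2 left out. H2-K1 had 5.49, 5.46 and 7.00 FPKM in sham and 26.4 and 22.01 FPKM in ICH (log2 fold change 1.85 ± 0.17 (SE), adjusted p = 0.00146), and Psmb8, an immunoproteasome subunit, had 0.422, 0.4 and 0.482 FPKM in sham and 3.12 and 2.25 FPKM in ICH (log2 fold change 1.35 ± 0.13 (SE), adjusted p = 0.00151). H2-Q4 and H2-Q6 also passed (1.60 and 1.08) but leaving out any sham library or ICH replicate 2 ended the call of H2-Q6; they are near-identical copies whose separate values are uncertain, and class I genes share sequence in general. Of 7 class II genes, 5 rose and 1 held, Cd74, the invariant chain (2.05, 2.04 and 2.53 FPKM in sham and 10.4 and 22.5 FPKM in ICH; log2 fold change 2.36 ± 0.31 (SE), adjusted p = 0.00584). The class II count was 1 with sham replicate 1 or 2 left out and 2 with sham replicate 3 left out. H2-DMa, which helps load peptides, was not called (2.77, 2.40 and 2.29 FPKM in sham and 2.84 and 1.96 FPKM in ICH; log2 fold change -0.05, adjusted p = 0.853).

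Of 13 Toll-like receptors and adaptors, 10 rose and 7 held (median 1.26). Tlr2, which senses bacterial lipoproteins and products of damaged cells, had 0.427, 0.436 and 0.57 FPKM in sham and 6.75 and 6.64 FPKM in ICH (log2 fold change 2.38 ± 0.10 (SE), adjusted p = 8.26e-05). Tlr13 (1.70), Tlr7 (1.59) and Cd180 (1.94) held too, whereas Irak1, a kinase downstream of them, was not called (0.17). Of 10 NF-kappaB factors and feedback genes, 3 rose and 2 held, and 6 were called without ICH replicate 1. Bcl3, a nuclear partner of NF-kappaB, had 0.225, 0.1 and 0.081 FPKM in sham and 2.39 and 2.76 FPKM in ICH (log2 fold change 1.66 ± 0.12 (SE), adjusted p = 0.000567), and Nfkbiz rose by 0.97. Rela, the main NF-kappaB subunit, was not called (log2 fold change 0.47, adjusted p = 0.0612).

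Chemokines gave 8 calls among 14 tested genes, 7 of them held (median 1.18). Ccl12, a monocyte attractant, had 0, 0.252 and 0.508 FPKM in sham and 16.8 and 14.05 FPKM in ICH (log2 fold change 3.73 ± 0.19 (SE), adjusted p = 0.000199). Ccl5, which attracts T cells and monocytes, had 0, 0.0433 and 0.147 FPKM in sham and 8.13 and 11.8 FPKM in ICH (log2 fold change 3.35 ± 0.26 (SE), adjusted p = 0.000866). Cxcl10, an interferon-induced attractant of T cells, had 0.175, 0.11 and 0.145 FPKM in sham and 4.86 and 5.98 FPKM in ICH (log2 fold change 2.48 ± 0.11 (SE), adjusted p = 0.000133). Ccl12, Ccl5 and Cxcl10 were each near 1 FPKM or below in all sham libraries. Ccl4 was not called (0.132, 0.203 and 0.538 FPKM in sham and 2.59 and 1.26 FPKM in ICH; log2 fold change 1.16, adjusted p = 0.0605), and Ccl7 was called but lost without sham replicate 1, 2 or 3 or ICH replicate 2.

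Receptors for cytokines were among the genes that rose. Of 13 genes of the TNF and interleukin-1 system, 7 rose and 3 held, and the count was 3 with sham replicate 1 or 2 left out and 4 with sham replicate 3 left out. The TNF receptor genes Tnfrsf1a (2.88, 3.15 and 3.18 FPKM in sham and 11.9 and 10.4 FPKM in ICH; log2 fold change 1.57 ± 0.10 (SE), adjusted p = 0.000385) and Tnfrsf1b (0.905, 0.951 and 0.87 FPKM in sham and 5.16 and 4.88 FPKM in ICH; log2 fold change 1.66 ± 0.17 (SE), adjusted p = 0.00236) held. Il1b, interleukin-1 beta, was not called (0.337, 0.448 and 0.512 FPKM in sham and 1.42 and 2.25 FPKM in ICH; log2 fold change 0.97, adjusted p = 0.184), and Il1a was called but lost without sham replicate 1, 2 or 3. Of 14 genes of the interleukin-6 family and Stat3, 5 rose and 2 held, with 2 with sham replicate 1 or 2 left out and 3 with sham replicate 3 or ICH replicate 2 left out. Osmr, the oncostatin M receptor, had 0.152, 0.379 and 0.272 FPKM in sham and 1.95 and 3.35 FPKM in ICH (log2 fold change 1.501 ± 0.18 (SE), adjusted p = 0.0043), and Socs3, the feedback inhibitor of this pathway, had 1.12, 0.957 and 0.807 FPKM in sham and 5.71 and 3.55 FPKM in ICH (log2 fold change 1.498 ± 0.20 (SE), adjusted p = 0.00719). Among 21 interleukins and their receptors 9 rose and 5 held; without sham replicate 1 or sham replicate 2 the count was 5. Il2rg, the common gamma chain (1.74), and Il4ra (1.23) led them.

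Interferon-response genes gave 23 calls among 28 tested, of which 11 held (median 1.49). The count was 11 with sham replicate 2 left out, 12 with sham replicate 1 left out and 13 with sham replicate 3 or ICH replicate 2 left out. Ifi27l2a, an interferon-induced gene, had 1.22, 1.96 and 1.42 FPKM in sham and 29.1 and 21.2 FPKM in ICH (log2 fold change 3.36 ± 0.32 (SE), adjusted p = 0.00168). Bst2, tetherin, which holds budding virus at the cell surface, had 2.48, 3.29 and 3.14 FPKM in sham and 22.4 and 17.8 FPKM in ICH (log2 fold change 2.41 ± 0.22 (SE), adjusted p = 0.00136). Lgals3bp, a secreted galectin-3 ligand, had 5.42, 5.03 and 6.01 FPKM in sham and 32.0 and 48.8 FPKM in ICH (log2 fold change 2.65 ± 0.25 (SE), adjusted p = 0.00151). ICH and sham did not overlap in these genes. Ifit3, which may share reads with Ifit3b, was called (2.10) but lost its call without sham replicate 2 or 3. Stat2 (log2 fold change 0.64, adjusted p = 0.0626) and Zbp1 (log2 fold change 1.24, adjusted p = 0.0636), a sensor of nucleic acids, were not called. Of 11 guanylate-binding proteins and p47 GTPases, which act against intracellular pathogens, 9 rose and 6 held; Gbp2 had 0.878, 0.824 and 1.37 FPKM in sham and 7.29 and 9.21 FPKM in ICH (log2 fold change 2.19 ± 0.17 (SE), adjusted p = 0.000816), and Irgm1 rose by 1.49. Members of the GBP family share sequence, so the level of a single member is uncertain.

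Interferon acts through the interferon-stimulated response element, and its core was common in the promoters of these genes. In RefSeq promoter sequences on GRCm38.p6 (250 bases before to 50 after the gene start), the core GAAANNGAA or its reverse complement TTCNNTTTC occurred in 15 of 23 tested interferon-response genes that had a promoter (65.2%) and in 831 of 9975 such genes tested in all (8.33%). Of the 20 that were called higher, 13 contained it. The windows are shown for 5 of the genes that rose (Ifitm3, 2.83, may share reads with Ifitm2); the capitals mark the core, and each is written 5′ to 3′ on the strand of the gene.
Ifitm3 (chr7:141010706-141010735, minus strand): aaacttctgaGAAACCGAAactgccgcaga
Bst2 (chr8:71537577-71537606, minus strand): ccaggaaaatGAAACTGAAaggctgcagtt
Gbp2 (chr3:142620595-142620624, plus strand): ctcttttagtTTCACTTTCactgtcttaag
Ifit3 (chr19:34583364-34583393, plus strand): agtggtaagtTTCACTTTCctcttctggtt
Irgm1 (chr11:48871425-48871454, minus strand): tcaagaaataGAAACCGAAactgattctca
A match describes these letters only, and binding of a factor was not measured. For chemokines, the NF-kappaB motif GGGNNTTTC or GAAANNCCC occurred in 1 of 9 promoters (11.1%), beside 501 of 9975 (5.02%).

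Astrocyte genes split into a reactive part that rose and an identity part with 1 call. Of 13 genes induced in astrocytes by most injuries, 11 rose and all 11 held (median 1.90). Their summed level was 42.3 to 48.9 FPKM in sham and 642 to 689 FPKM in ICH. Timp1, an inhibitor of metalloproteinases, had 0.642, 0.189 and 0.311 FPKM in sham and 27.4 and 32.4 FPKM in ICH (log2 fold change 4.49 ± 0.23 (SE), adjusted p = 0.000199). Gfap had 23.98, 25.4 and 29.4 FPKM in sham and 394 and 338 FPKM in ICH, and Lcn2, lipocalin-2, had 0.595, 0.765 and 0.574 FPKM in sham and 38.6 and 41.9 FPKM in ICH; these sham and ICH values were far apart. Aspg (log2 fold change 0.76, adjusted p = 0.128) and Hspb1 (log2 fold change 0.55, adjusted p = 0.0536) were the members not called. Of 10 genes described in astrocytes under inflammation, 6 rose and 5 held, and of 7 described after ischaemia 3 rose and held, including Tgm1, a transglutaminase, with 0.0436, 0.0639 and 0.0635 FPKM in sham and 22.8 and 15.0 FPKM in ICH (log2 fold change 4.21 ± 0.23 (SE), adjusted p = 0.000257). Cd14, on the ischaemia list, is also a Toll-like receptor partner of myeloid cells. Lists share members. Of the 6 genes called on the inflammation list, Serping1 is also on the complement list and Gbp2 on the interferon list. Psmb8 and H2-D1 are also on the MHC class I list.

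Of 15 astrocyte identity genes only Aqp4, the water channel of astrocyte endfeet, was called (16.6, 16.8 and 23.2 FPKM in sham and 36.5 and 55.3 FPKM in ICH; log2 fold change 1.23 ± 0.21 (SE), adjusted p = 0.0202), and it was not called without sham replicate 1 or 2 or ICH replicate 2. The median of the list was 0.11. Aldh1l1, a folate enzyme used to mark astrocytes, had 9.97, 11.1 and 10.4 FPKM in sham and 24.1 and 12.9 FPKM in ICH (log2 fold change 0.70, adjusted p = 0.166). Without ICH replicate 1, 2 identity genes were called higher and 3 lower. Chil1, a secreted chitinase-like protein of reactive astrocytes, lay outside the lists and rose with no overlap (2.50, 2.37 and 2.12 FPKM in sham and 21.0 and 14.4 FPKM in ICH; log2 fold change 2.47 ± 0.34 (SE), adjusted p = 0.00734).

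**Figure D2:**
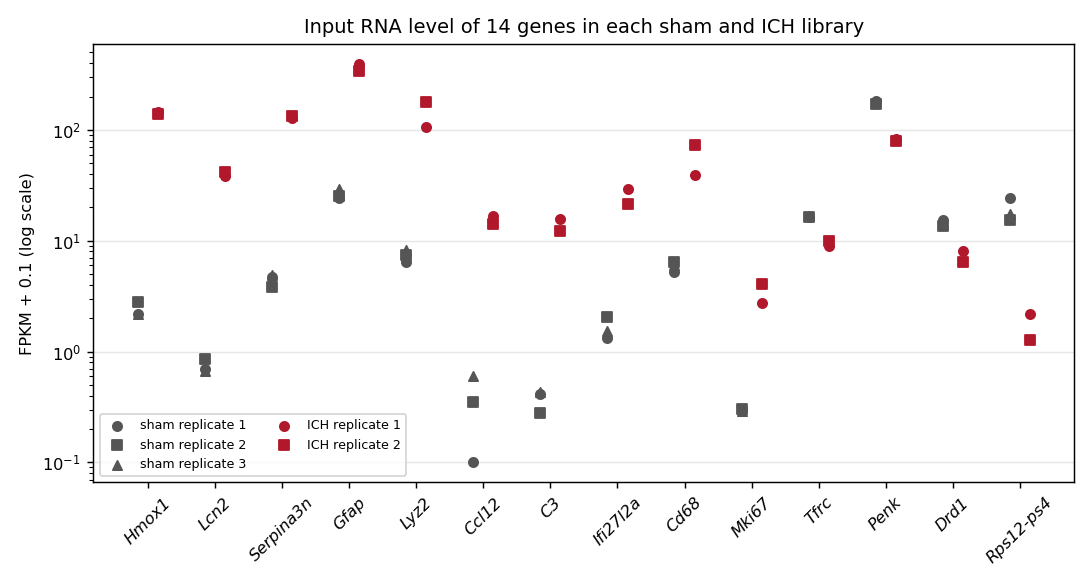
RNA level of 14 genes in each of the 3 sham (grey) and 2 ICH (red) input libraries, as FPKM + 0.1 on a log axis, with 1 symbol shape per replicate number. Both ICH points lie above all sham points from Hmox1 to Mki67 and below all of them from Tfrc to Rps12-ps4.

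Vessel genes changed mainly in the activated set. Of 9 genes of activated endothelium, 5 rose and 4 held (median 0.87), and 8 were called without ICH replicate 1. Selp, P-selectin, on which leukocytes roll, had 0.0657, 0.0532 and 0.0182 FPKM in sham and 1.67 and 2.46 FPKM in ICH (log2 fold change 1.54 ± 0.18 (SE), adjusted p = 0.00387). Icam1, to which they then adhere, had 0.413, 0.513 and 0.572 FPKM in sham and 2.98 and 2.45 FPKM in ICH (log2 fold change 1.31 ± 0.12 (SE), adjusted p = 0.00126), and Vwf rose by 1.23. Of 17 genes of resting brain endothelium, Pecam1 (0.75) and Cdh5 (0.57) were called, and neither was called in any leave-one-out fit except the one without ICH replicate 1. Of 10 pericyte and smooth muscle genes Tagln, transgelin, was the only one called (2.47, 3.16 and 2.91 FPKM in sham and 8.58 and 12.1 FPKM in ICH; log2 fold change 1.55 ± 0.17 (SE), adjusted p = 0.00259), with 3 without ICH replicate 1. Of 12 fibroblast genes 3 rose and Dcn, decorin, held (1.39, 1.49 and 1.69 FPKM in sham and 6.20 and 7.90 FPKM in ICH; log2 fold change 1.67 ± 0.12 (SE), adjusted p = 0.000656); the count was 1 with sham replicate 3 left out and 6 with ICH replicate 1 left out. Col1a1, the main fibrillar collagen, was not called (0.875, 0.91 and 1.38 FPKM in sham and 1.95 and 3.59 FPKM in ICH; log2 fold change 0.85, adjusted p = 0.0871).

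Matrix and clotting genes rose as well. Of 13 matrix genes, 6 rose and 5 held (median 0.77). Tgfbi, a secreted protein induced by TGF-beta, had 1.11, 1.001 and 1.38 FPKM in sham and 10.3 and 12.6 FPKM in ICH (log2 fold change 2.52 ± 0.14 (SE), adjusted p = 0.000227). Lgals1, galectin-1, had 7.68, 10.8 and 8.76 FPKM in sham and 71.5 and 47.6 FPKM in ICH (log2 fold change 2.57 ± 0.20 (SE), adjusted p = 0.000866), and Fn1, fibronectin, had 3.54, 3.76 and 4.05 FPKM in sham and 10.6 and 17.1 FPKM in ICH (log2 fold change 1.60 ± 0.19 (SE), adjusted p = 0.0039). Of 12 coagulation and fibrinolysis genes, 7 rose and 4 held, with 4 with sham replicate 1, 2 or 3 left out. A2m, a broad protease trap, had 0.486, 0.327 and 0.633 FPKM in sham and 6.11 and 4.44 FPKM in ICH (log2 fold change 2.07 ± 0.19 (SE), adjusted p = 0.0013). Of 11 metalloproteinases and inhibitors 4 rose and 2 held, Timp1 and Adam8 (1.61), with 2 with sham replicate 1 or 2 left out; Mmp9, often measured after haemorrhage, was not called (0.346, 0.375 and 0.265 FPKM in sham and 1.27 and 1.24 FPKM in ICH; log2 fold change 0.76, adjusted p = 0.0557). Of 14 TGF-beta and BMP genes 3 rose: Tgfb1 (1.54) and Tgfbr2 (1.13) held, Tgfbr1 (0.64) was not called without sham replicate 1, 2 or 3, and 6 were called without ICH replicate 1.

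Of 26 cell cycle genes listed, 17 could be tested, and these rose, with 13 held (median 1.15). The other 9 were too low to test, and 12 of the 17 averaged under 1 FPKM in sham and passed the filter through the other libraries, so the count describes only genes that could be tested. Mki67, a protein of dividing cells, had 0.199, 0.203 and 0.188 FPKM in sham and 2.64 and 4.00 FPKM in ICH (log2 fold change 1.83 ± 0.15 (SE), adjusted p = 0.000924). Rrm2, a subunit of ribonucleotide reductase, had 0.629, 0.807 and 0.514 FPKM in sham and 4.13 and 3.76 FPKM in ICH (log2 fold change 1.59 ± 0.11 (SE), adjusted p = 0.000598). Ube2c, which drives exit from mitosis, had 0.0586, 0.196 and 0.311 FPKM in sham and 2.19 and 2.68 FPKM in ICH (log2 fold change 1.53 ± 0.14 (SE), adjusted p = 0.00126). Levels remained low in both groups, and the groups did not overlap. Mcm5, a subunit of the replicative helicase, was called (0.96) but lost its call without sham replicate 1, 2 or 3.

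The CCAAT box, bound by NF-Y, is a known element of cell cycle promoters. The letters CCAAT or ATTGG occurred in 13 of the 13 cell cycle genes with a promoter (100%), all called higher, beside 4273 of 9975 tested genes (42.8%). The windows are shown for the members with the largest increases, and capitals mark the box.
Mki67 (chr7:135716503-135716532, minus strand): tggccgcctggcCCAATcgcagcacttagc
Rrm2 (chr12:24708192-24708221, plus strand): ggtcagcggcgtCCAATgggaggcgaggcc
Ube2c (chr2:164769762-164769791, plus strand): acgccccgccgtCCAATcgtggcgcgttac
Top2a (chr11:99024230-99024259, minus strand): agcgagtcggtgATTGGttcctctgatttg

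Haem and iron genes changed in both directions. Of 19 tested, 8 rose and 5 held, 1 fell and held (median 0.36), and the count of increases was 5 with sham replicate 1, 2 or 3 left out. Hmox1, haem oxygenase-1, had 2.10, 2.67 and 2.08 FPKM in sham and 144 and 141 FPKM in ICH (log2 fold change 5.45 ± 0.11 (SE), adjusted p = 6.01e-06). Cp, ceruloplasmin, which oxidises iron for export, had 0.99, 1.10 and 1.42 FPKM in sham and 5.16 and 7.78 FPKM in ICH (log2 fold change 1.76 ± 0.17 (SE), adjusted p = 0.00163). The ferritin chains Fth1 (354, 339 and 343 FPKM in sham and 614 and 826 FPKM in ICH; log2 fold change 1.04 ± 0.16 (SE), adjusted p = 0.0121) and Ftl1 (130.1, 125 and 122 FPKM in sham and 544 and 249.9 FPKM in ICH; log2 fold change 1.54 ± 0.29 (SE), adjusted p = 0.0281) rose, with pseudogene copies that may share reads, but Fth1 was not called without sham replicate 1, 2 or 3, and Ftl1 was not called without sham replicate 1, 2 or 3 or acupuncture replicate 1 or 2. Tfrc, which takes up iron, had 16.3, 16.4 and 16.6 FPKM in sham and 8.92 and 9.80 FPKM in ICH (log2 fold change -0.75 ± 0.09 (SE), adjusted p = 0.00326). Haemoglobin transcripts were not higher in ICH. The 8 erythroid genes with deposited values, of which 4 were tested, summed to 188 to 380.0 FPKM in sham and 80.5 to 181 FPKM in ICH. In this sum ICH replicate 2 lay just below the lowest sham library. Hbb-bt was called lower (-1.60) but lost its call without sham replicate 2 or 3 or ICH replicate 1 or 2 or acupuncture replicate 1 or 2, and it may share reads with near-identical globin genes.

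Of 17 targets of Nrf2, the factor of the response to oxidants, 5 rose and 2 held (median 0.34); the count was 2 with sham replicate 1 left out and 3 with sham replicate 2 or 3 left out. Nfe2l2, which encodes Nrf2 itself, had 3.21, 2.88 and 3.38 FPKM in sham and 7.89 and 10.8 FPKM in ICH (log2 fold change 1.30 ± 0.14 (SE), adjusted p = 0.00234). Slc7a11, which imports cystine for glutathione, had 2.80, 2.73 and 2.89 FPKM in sham and 5.51 and 6.05 FPKM in ICH (log2 fold change 0.83 ± 0.09 (SE), adjusted p = 0.00308). Prdx1, a peroxiredoxin, had 28.6, 27.3 and 29.4 FPKM in sham and 50.2 and 44.4 FPKM in ICH (log2 fold change 0.71 ± 0.10 (SE), adjusted p = 0.00771) and was not called without sham replicate 1. The core of the antioxidant response element, TGACNNNGC or GCNNNGTCA, occurred in 7 of 13 list promoters (53.8%), in 4 of the 5 called, and in 1668 of 9975 overall (16.7%). Windows of 3 called genes are given, with the core in capitals; of these Txnrd1 was not called without sham replicate 1, 2 or 3 or acupuncture replicate 1 or 2.
Nfe2l2 (chr2:75704884-75704913, minus strand): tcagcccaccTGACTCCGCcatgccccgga
Prdx1 (chr4:116685456-116685485, plus strand): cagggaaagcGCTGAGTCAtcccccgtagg
Txnrd1 (chr10:82859104-82859133, plus strand): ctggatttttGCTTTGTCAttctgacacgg

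Genes of lipid handling rose, while those of cholesterol synthesis gave calls only downward. Of 14 lipid-handling genes, 6 rose and 5 held. Abca1, which exports cholesterol, had 3.76, 3.35 and 3.40 FPKM in sham and 9.18 and 11.1 FPKM in ICH (log2 fold change 1.30 ± 0.13 (SE), adjusted p = 0.00176), and Plin2, which coats lipid droplets, had 1.32, 1.42 and 1.36 FPKM in sham and 6.95 and 5.25 FPKM in ICH (log2 fold change 1.57 ± 0.14 (SE), adjusted p = 0.00126). All 18 cholesterol synthesis genes had a log2 fold change below 0 (median -0.39), and 3 were called lower, among them Insig1 (22.1, 18.6 and 22.5 FPKM in sham and 12.5 and 11.6 FPKM in ICH; log2 fold change -0.75 ± 0.11 (SE), adjusted p = 0.00998) and Cyp51 (-0.53). None of the 3 held, and the count was 0 with sham replicate 1 or 3 left out, 1 with sham replicate 2 left out and 9 with ICH replicate 1 left out. Of 9 prostaglandin and leukotriene genes 3 rose and Alox5ap, which activates 5-lipoxygenase, held (2.25, 1.77 and 1.71 FPKM in sham and 9.76 and 11.1 FPKM in ICH; log2 fold change 1.98 ± 0.13 (SE), adjusted p = 0.000449), with 1 with sham replicate 1, 2 or 3 left out and 5 with ICH replicate 1 left out. Ptgs2, cyclooxygenase-2, was not called (log2 fold change 0.53, adjusted p = 0.0886).

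Of 15 unfolded protein response genes only Pdia4 was called (0.59), of 13 p53 targets only Fas (0.96), and of 14 heat shock genes Hspb8 (0.96) and Bag3 (0.76). None of these 4 held: Pdia4 was not called without sham replicate 1, 2 or 3 or acupuncture replicate 1 or 2, Fas was not called without sham replicate 1, 2 or 3 or ICH replicate 2, Hspb8 was not called without sham replicate 1, 2 or 3 and Bag3 was not called without sham replicate 1 or 2 or ICH replicate 2 or acupuncture replicate 1 or 2. The unfolded protein response had 3 higher genes without ICH replicate 2. Without ICH replicate 1 there were 4 higher and 3 lower unfolded protein response genes, 3 and 4 p53 targets and 5 and 3 heat shock genes. Of 18 hypoxia and glycolysis genes, Hk2, hexokinase 2, rose and held (0.522, 0.396 and 0.585 FPKM in sham and 2.22 and 1.62 FPKM in ICH; log2 fold change 0.96 ± 0.13 (SE), adjusted p = 0.00743). Vegfa, which is induced by low oxygen, was lower (12.8, 16.0 and 15.5 FPKM in sham and 7.82 and 8.03 FPKM in ICH; log2 fold change -0.82 ± 0.14 (SE), adjusted p = 0.0192) but lost its call without sham replicate 2 or 3 or ICH replicate 2. This list had 5 calls in each direction without ICH replicate 1. Of 12 inflammasome and death genes 3 rose, Casp8 (1.35), Pycard (1.07) and Fas, with 6 called without ICH replicate 1. Mt2 (1.25) and Cebpd (1.62), both responsive to glucocorticoid and cytokines, held. They were the held members of the 13 tested glucocorticoid response genes. The median of that list was 0.04, and 5 of its genes had a log2 fold change below 0. Per1, also on it, was called lower but did not hold. Among 18 genes of the S100 and annexin families 10 rose and 3 held, with 3 with sham replicate 1 left out, 4 with sham replicate 3 left out and 5 with sham replicate 2 left out; Anxa2 had 2.33, 2.23 and 2.40 FPKM in sham and 8.46 and 5.77 FPKM in ICH (log2 fold change 1.27 ± 0.18 (SE), adjusted p = 0.00965).

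Hes5, a Notch target of astrocytes and progenitors, fell and held (5.68, 5.68 and 6.73 FPKM in sham and 2.44 and 1.13 FPKM in ICH; log2 fold change -1.38 ± 0.20 (SE), adjusted p = 0.00937), and Nrarp, a feedback inhibitor of Notch, was lower (-0.60) but lost its call without sham replicate 1 or 3 or ICH replicate 2 or acupuncture replicate 1 or 2; of 13 Notch genes no other was called, beside 3 higher and 4 lower without ICH replicate 1. Of 14 Wnt genes Apcdd1, an inhibitor of the pathway, was the only one called (2.08, 2.19 and 2.33 FPKM in sham and 4.05 and 4.80 FPKM in ICH; log2 fold change 0.76 ± 0.10 (SE), adjusted p = 0.00743), with 2 without sham replicate 2 and 4 without ICH replicate 1. Csf1 (0.99) and Fgf2 (0.89) rose among 16 growth factors, and 4 were called higher without ICH replicate 1. Tubb6, a tubulin that rises in injured cells, was the only gene called of 11 of the axon injury response (0.356, 0.483 and 0.212 FPKM in sham and 4.04 and 3.82 FPKM in ICH; log2 fold change 1.87 ± 0.12 (SE), adjusted p = 0.000418); 2 were called without ICH replicate 2. Of 18 immediate early genes Egr4 was called lower (8.99, 15.8 and 12.8 FPKM in sham and 2.85 and 4.73 FPKM in ICH; log2 fold change -1.495 ± 0.27 (SE), adjusted p = 0.0231) but lost its call without sham replicate 2 or 3, and 2 were called without sham replicate 1 or ICH replicate 2.

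Among neurons, the striatal set changed. All 20 genes of striatal projection neurons had a log2 fold change below 0 (median -0.96), and 14 were called lower, of which 3 held: Penk, Rasgrp2 and Syndig1l. The count was 3 with sham replicate 1 or 3 left out, 6 with sham replicate 2 left out and 9 with ICH replicate 2 left out. Penk, the enkephalin precursor, had 181, 170.1 and 183 FPKM in sham and 82.8 and 79.3 FPKM in ICH (log2 fold change -1.13 ± 0.11 (SE), adjusted p = 0.00151). Rasgrp2, an activator of Rap1, had 5.22, 4.52 and 4.71 FPKM in sham and 2.47 and 1.76 FPKM in ICH (log2 fold change -0.91 ± 0.13 (SE), adjusted p = 0.00842), and Syndig1l, a membrane protein of striatal neurons, had 18.5, 16.6 and 17.4 FPKM in sham and 7.96 and 8.58 FPKM in ICH (log2 fold change -0.99 ± 0.10 (SE), adjusted p = 0.00178). The ICH libraries lay below all sham libraries for each. Adora2a, an adenosine receptor of striatal neurons, had 21.7, 19.0 and 19.3 FPKM in sham and 10.03 and 8.53 FPKM in ICH (log2 fold change -1.03 ± 0.22 (SE), adjusted p = 0.047) and was not called without sham replicate 1, 2 or 3 or ICH replicate 2. Gng7 (log2 fold change -0.87, adjusted p = 0.053) and Scn4b (log2 fold change -1.35, adjusted p = 0.0605) were not called.

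The brain region of the tissue was not given, so the levels of regional marker lists were set side by side. The summed level of the striatal list was 771 to 835 FPKM in sham and 345 to 442 FPKM in ICH; that of thalamic neurons was 64.1 to 90.4 FPKM in sham and 50.7 to 51.9 FPKM in ICH (median -0.55), and that of hypothalamic peptides was 33.3 to 173 FPKM in sham and 54.8 to 81.1 FPKM in ICH (median -0.46). The medians were 0.26 for 12 cortical and 0.53 for 8 hippocampal genes. With all libraries, limma called no gene of the thalamic, hypothalamic, cortical and hippocampal lists (5, 1, 3 and 2 at an unadjusted p under 0.05). Each of these lists had 1 call without sham replicate 2, the hippocampal list also without ICH replicate 1 or either acupuncture library, and without ICH replicate 1 there were 4 cortical genes higher and 3 thalamic genes lower. Whether the regions in the tissue taken from each mouse had a part in the striatal result was not tested.

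Outside the lists 10 decreases held, some of them in genes known from the striatum. Arl4d, a small GTPase-like protein, had 16.5, 23.4 and 15.2 FPKM in sham and 5.70 and 4.40 FPKM in ICH (log2 fold change -1.66 ± 0.19 (SE), adjusted p = 0.00368). Rxrg, a retinoid X receptor of striatal neurons, had 10.5, 9.55 and 10.2 FPKM in sham and 4.60 and 4.37 FPKM in ICH (log2 fold change -1.01 ± 0.10 (SE), adjusted p = 0.00194). Slc35d3, a transporter known from striatal neurons, had 3.91, 3.72 and 4.79 FPKM in sham and 1.67 and 1.49 FPKM in ICH (log2 fold change -0.99 ± 0.12 (SE), adjusted p = 0.0041). Ido1, which degrades tryptophan, was also lower (2.00, 1.85 and 2.23 FPKM in sham and 0.554 and 0.446 FPKM in ICH; log2 fold change -1.01 ± 0.14 (SE), adjusted p = 0.00842), as were Phospho1 (-1.28), Tcap (-1.23), Tmem158 (-1.11) and Actn2 (-0.77). Vps25 (-1.45) neighbours Ramp2, which was called higher, and the 2 genes overlap in annotation, so its value is uncertain. Rps12-ps4 (-2.92) is a pseudogene whose reads may belong to another copy.

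General neuronal, synaptic and myelin genes gave no call with all libraries: 0 of 13 pan-neuronal, 0 of 19 synaptic vesicle, 0 of 15 postsynaptic, 0 of 22 glutamate receptor, 0 of 14 GABA receptor, 0 of 29 sodium and calcium channel, 0 of 14 myelin and 0 of 12 oligodendrocyte precursor genes. In the same order, 4, 1, 2, 0, 3, 3, 5 and 2 of them had an unadjusted p under 0.05 in limma. Without ICH replicate 1 each of these lists except the precursors had calls, such as 5 pan-neuronal genes in each direction and 7 synaptic vesicle genes higher and 5 lower. Without either acupuncture library 1 myelin gene was called in each direction. Tubb3, neuronal tubulin, had 147, 138 and 146 FPKM in sham and 112 and 69.5 FPKM in ICH (log2 fold change -0.69, adjusted p = 0.1), and Mag, a myelin glycoprotein, had 56.9, 46.7 and 57.5 FPKM in sham and 33.8 and 23.1 FPKM in ICH (log2 fold change -0.91, adjusted p = 0.0713). Of 68 potassium channel genes, Kcnk6 (0.87) and Kcnj2 (-0.55) were called, and neither held. Leaving out sham replicate 1, 2 or 3 or ICH replicate 2 ended the call of Kcnk6. Kcnj2 was not called without sham replicate 1, 2 or 3 or acupuncture replicate 1 or 2. Potassium channels had 10 higher and 15 lower without ICH replicate 1 and 2 lower without ICH replicate 2. Tac1, the substance P precursor, was lower (15.4, 10.9 and 15.3 FPKM in sham and 4.92 and 5.38 FPKM in ICH; log2 fold change -1.26 ± 0.22 (SE), adjusted p = 0.0215) but lost its call without sham replicate 1 or 3 or ICH replicate 2.

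Among 85 cytosolic ribosomal protein genes 2 were called higher, Rplp0 (0.60) and Rps4x (0.45), and neither held: the former was not called without sham replicate 1, 2 or 3, and the latter was not called without sham replicate 1, 2 or 3 or acupuncture replicate 1 or 2. Limma called none of 102 nuclear respiratory chain genes (median -0.20, 7 at an unadjusted p under 0.05) and none of 21 mitochondrially encoded genes (1). Of 310 Zfp zinc fingers 2 were higher and 1 lower, with no higher one without any 1 sham library and no lower one without any 1 library other than ICH replicate 1. Of 228 solute carriers 12 were higher (5 held) and 3 lower (1 held), with 5 higher without any 1 sham library and 1 lower without sham replicate 1 or 3, ICH replicate 2 or either acupuncture library. Without ICH replicate 1 the ribosomal family had 17 higher and 34 lower, the respiratory chain 6 and 53, the Zfp family 59 and 37 and the solute carriers 36 and 53. By gene class, 660 of 12102 protein-coding genes were higher and 91 lower, 4 and 4 of 311 long non-coding RNA genes, 5 and 2 of 624 pseudogenes, 0 and 1 of 30 small nucleolar RNA genes, and 0 of 45 microRNA genes (3 at an unadjusted p under 0.05 in limma). Without 1 sham library, 351 to 380 protein-coding genes were higher, 14 to 41 were lower, and long non-coding RNA genes had 2 higher and 0 lower. Without ICH replicate 1 the higher and lower genes numbered 2260 and 2470 protein-coding, 31 and 49 long non-coding, 123 and 91 pseudogenes, 1 and 5 small nucleolar and 1 and 13 microRNA genes. Without ICH replicate 2 there were 15 and 6 pseudogenes and 1 lower microRNA gene, and 2 microRNA genes were lower without either acupuncture library. Pseudogenes had 2 higher without sham replicate 3 and 1 lower without sham replicate 1. Small nucleolar RNA genes had 1 higher without sham replicate 3, 2 lower without sham replicate 2 and none lower without sham replicate 1 or either acupuncture library. In the groups described above with no lower call from all libraries, the fit without ICH replicate 1 called lower 3 Nrf2 targets and 3 Wnt genes, 2 genes each among chemokines, C-type lectins, interleukins and their receptors, inflammasome, TGF-beta and axon injury genes, and 1 each among lysosomal, Fc receptor, MHC class I, resting endothelial, pericyte, prostaglandin and metalloproteinase genes. The poly(A) selection limits what can be read from the last 2 classes.

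Some groups differed between the ICH libraries themselves. ICH replicate 1 exceeded replicate 2 by a median of 0.44 (log2) in ribosomal proteins and 0.33 in respiratory chain genes, and lay below it by a median difference of -1.02 in mitochondrially encoded genes and -0.85 in hypothalamic peptides. Hnrnpa3, an RNA-binding protein with pseudogene copies, had 0.487, 0.715 and 0.891 FPKM in sham and 0.634 and 25.9 FPKM in ICH, and Vkorc1l1, an enzyme of the vitamin K cycle, had 11.1, 10.6 and 10.8 FPKM in sham and 10.1 and 0.361 FPKM in ICH. Oxt, oxytocin, had 34.0, 0.0889 and 26.6 FPKM in sham and 0.842 and 12.6 FPKM in ICH, so that the sham libraries spanned a wider range than the ICH libraries.

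In m6A, peaks were compared through the authors' deposited table, which gives the log2 ratio of IP over input for a group as a whole and its difference between groups, with no value per library. The replicate spread of these values therefore cannot be shown. The table lists 23124 peaks, and its adjusted p-values imply that 45096 were tested by the authors. In the authors' deposited table, at an adjusted p under 0.05, 16152 peaks were higher in ICH (35.8% of those tested) and 4161 were lower (9.23%), so that 79.5% of called peaks were higher. At a difference of at least 1 (log2) in the authors' deposited table the numbers were 3746 and 858.

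Peak ratios were higher in ICH overall. Of peaks in the authors' deposited lists for sham and ICH, 25558 matched one to one with at least 50% reciprocal overlap, and the median log2 IP over input was 1.27 in sham and 1.63 in ICH. Between these lists, both from the authors, the median difference was 0.29, and 76.9% of matched peaks were higher in ICH. Taken relative to this shift, as an alternative chosen after the data were seen, 15014 called peaks were higher and 5299 lower (73.9% higher). These are the same called peaks sorted again, with no new p-value. The authors' table lists no peak with a p above 0.05. The counts therefore cannot show how peaks would divide if the shift were taken out before testing. Directions of m6A below are as deposited, without this correction. The ICH list also held more peaks (54754 in 17512 genes) than the sham list (48251 in 17084 genes). Of the sham peaks, 39011 (80.9%) overlapped an ICH peak by at least 1 base, and of the ICH peaks 39221 (71.6%) overlapped a sham peak.

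Higher peaks were in the majority in each of the 5 largest classes of annotation. Of called peaks in the authors' deposited table, as many as 13441 lay in 3′ UTRs and 81.8% of these were higher. Beside them were 3209 annotated only as exonic (72.6%), 1900 in 5′ UTRs (78.6%), 1165 in exons of non-coding RNA (70.8%) and 551 in introns (85.5%). By genomic span, introns included, the share was lower for long peaks: 84.0% of 5291 peaks up to 300 bp, 86.6% of 7212 above that and up to 1000 bp, 73.0% of 5995 up to 10000 bp and 60.0% of 1815 beyond that.

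**Figure D3:**
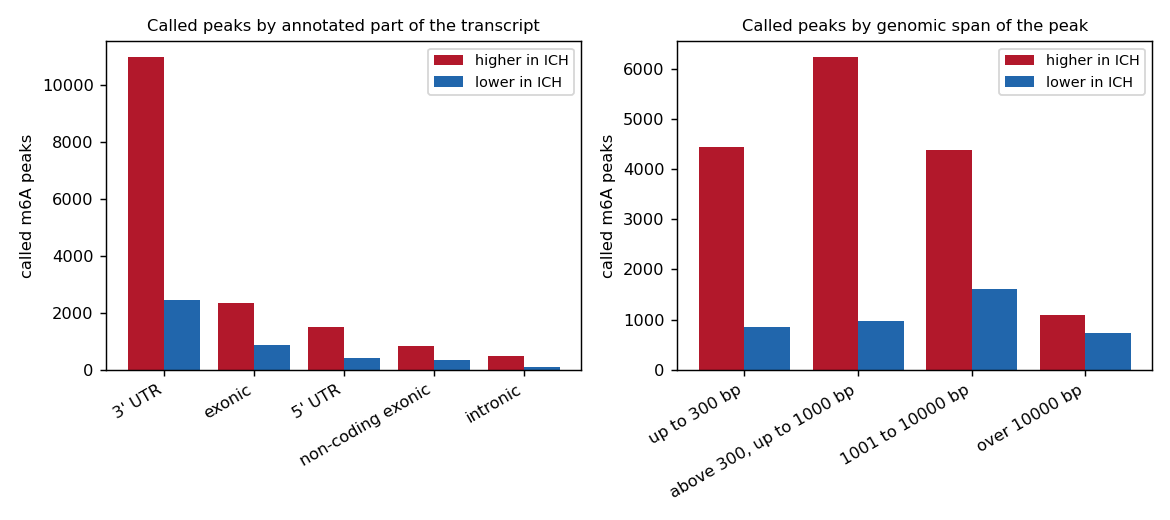
Number of called m6A peaks higher (red) and lower (blue) in ICH in the authors' deposited table, by annotated part of the transcript (left) and by genomic span of the peak (right), on linear axes that start at 0. The red bar is the taller in every class, and the bars are nearest in height for spans over 10000 bp (60.0% higher).

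The 10 largest increases among peaks spanning at most 1000 bp, in genes with at least 5 FPKM, were all in genes whose RNA was not called. Most genes were of this kind, as 12890 of all 13666 tested genes had no RNA call. In the authors' deposited table, a 3′ UTR peak of Rpl30, a ribosomal protein (chr15:34440504-34440854, GRCm38), had a log2 IP over input of 0.91 in sham and 7.59 in ICH (difference 6.69, the authors' adjusted p = 2.67e-50). Rpl30 has processed pseudogene copies, so this value is uncertain. In the authors' deposited table, a peak in the 3′ UTR of Usp12, a deubiquitinase (chr5:146734808-146735058), had a log2 IP over input of -0.50 in sham and 2.72 in ICH (difference 3.22, the authors' adjusted p = 5.21e-44). An intronic peak of Srsf4, a splicing factor (chr4:131880477-131880577), had a log2 IP over input of -1.42 in sham and 2.41 in ICH (difference 3.83, the authors' adjusted p = 5.03e-05) in the authors' deposited table. The RNA of these 3 genes was not called, although Rpl30 was lower in ICH replicate 2 than in any sham library: Rpl30 had 21.2, 20.9 and 19.4 FPKM in sham and 19.9 and 13.2 FPKM in ICH, Usp12 had 11.7, 12.8 and 11.9 FPKM in sham and 12.9 and 11.9 FPKM in ICH and Srsf4 had 14.4, 12.03 and 13.9 FPKM in sham and 13.5 and 16.1 FPKM in ICH.

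Of the 10 largest decreases by the same rule, 6 lay in 5′ UTRs. In the authors' deposited table a 3′ UTR peak of Ddx1, an RNA helicase (chr12:13218572-13218697), had a log2 IP over input of 4.81 in sham and 1.95 in ICH (difference -2.85, the authors' adjusted p = 0.00954). A 5′ UTR peak of Paxx, a DNA repair factor (chr2:25460978-25461078), had a log2 IP over input of 2.20 in sham and -0.52 in ICH (difference -2.73, the authors' adjusted p = 1.37e-05) in the authors' deposited table. Necab2, a calcium-binding protein of neurons, had a 5′ UTR peak (chr8:119446943-119447093) at a log2 IP over input of 2.05 in sham and -0.43 in ICH (difference -2.48, the authors' adjusted p = 6.31e-07) in the authors' deposited table. In ICH the signal of both Paxx and Necab2 was thus lower in IP than in input.

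By gene, m6A was counted for the tested genes: 64.8% had at least 1 peak called higher in the authors' deposited table and 21.0% at least 1 called lower. Families of the ribosome, respiratory chain and proteasome had a higher peak in most genes. Of 85 cytosolic ribosomal protein genes 90.6% had a higher peak and 1.18% a lower one, and 134 of their 135 called peaks were higher (median difference 0.83, from the authors' deposited table). Nuclear respiratory chain genes had 87.3% and 4.90%, and proteasome subunits 88.4% and 9.30%. Their median levels over the input libraries were 56.6, 34.4 and 17.6 FPKM, and of genes not called in RNA with at least 20 FPKM 86.2% had a higher and 22.1% a lower peak. The input level of these families also differed between the ICH libraries, by a median of 0.44, 0.33 and 0.29 (log2, replicate 1 minus replicate 2), and the part of that difference in the m6A ratios was not tested.

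Neuronal genes often carried peaks in both directions. A higher and a lower peak were found, in turn, in 89.5% and 52.6% of synaptic vesicle genes, 80.0% and 66.7% of postsynaptic genes and 100% and 38.5% of pan-neuronal genes. Of 22 glutamate receptor genes 16 (72.7%) had a lower peak and 50.0% a higher one, and of their 55 called peaks 29 were higher. TGF-beta and BMP genes had a lower peak in 8 of 14 and a median difference of -0.38, while 6 of 14 had a higher peak. All 15 astrocyte identity genes had a higher peak and 33.3% a lower one. Sodium and calcium channels had 65.5% and 51.7%.

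Groups that rose in RNA differed in their shares of genes with an m6A call. A higher peak was found in 35.7% of interferon genes and of chemokines, 38.5% of pan-reactive astrocyte genes, 41.2% of cell cycle genes and 18.2% of guanylate-binding proteins, beside 64.8% of all tested genes. The median levels of these groups over the input libraries were, in turn, 4.09, 5.23, 4.67, 1.70 and 2.25 FPKM, and at 1 to 5 FPKM 50.7% of genes not called in RNA and 35.1% of those higher in RNA had such a peak. A higher peak was found in 13 of 16 complement (81.2%), 18 of 24 lysosomal (75.0%) and 9 of 13 cathepsin and cystatin genes (69.2%), which is a description with no test. The median levels of these groups were, in turn, 5.87, 15.3 and 17.5 FPKM. At 5 to 20 FPKM, 76.1% of genes not called in RNA and 52.1% of those higher in RNA had a higher peak. Lower peaks were found in 6.25% of complement and 8.33% of lysosomal genes and in 0 of 13 cathepsin genes, beside 21.0%.

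**Figure D4:**
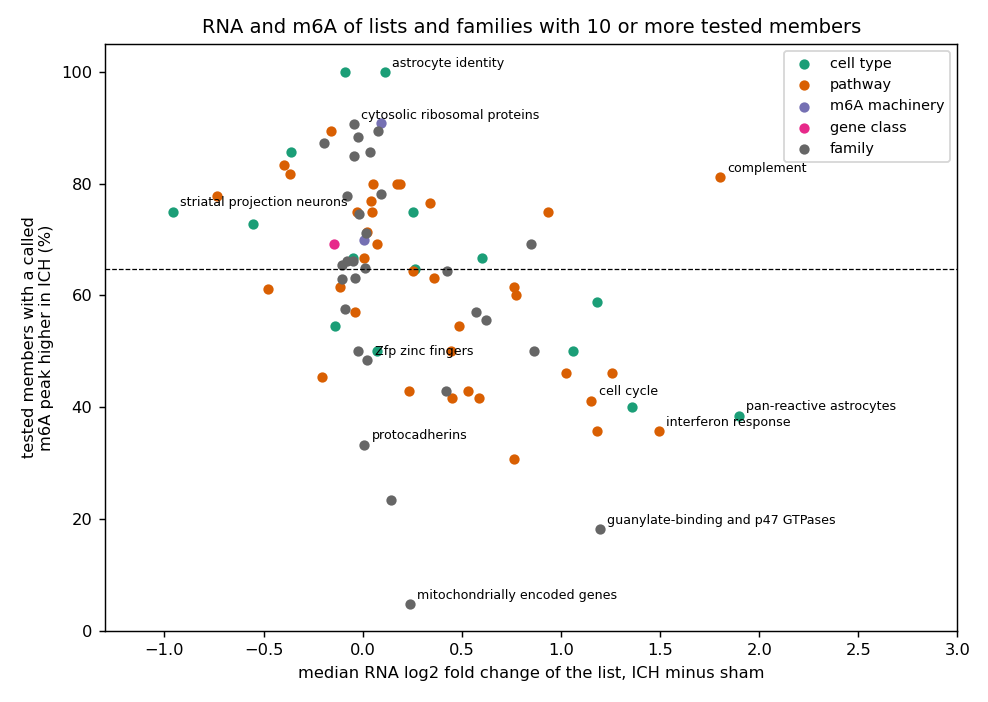
Each point is a gene list or family with at least 10 tested members, coloured by kind and placed by its median log2 fold change of RNA (horizontal) and the percent of its tested genes with at least 1 m6A peak called higher in ICH in the authors' deposited table (vertical). The dashed line is the 64.8% of all tested genes. The interferon and guanylate-binding points lie to the right and below it, ribosomal proteins near 0 and above it, and complement to the right and above it.

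Enzymes and readers of m6A gave no call in RNA: none of 10 writer genes and none of 11 eraser and reader genes was called by limma with all libraries (0 and 0 at an unadjusted p under 0.05), and without ICH replicate 1 there were 1 writer and 2 erasers or readers called in each direction. Mettl3, the catalytic writer, had 2.65, 2.58 and 2.72 FPKM in sham and 2.70 and 2.37 FPKM in ICH and Mettl14, its partner, 2.56, 2.27 and 2.71 FPKM in sham and 2.86 and 2.57 FPKM in ICH. Fto had 11.5, 10.01 and 11.1 FPKM in sham and 10.5 and 10.9 FPKM in ICH, and Alkbh5 had 8.79, 8.38 and 9.27 FPKM in sham and 8.46 and 5.402 FPKM in ICH (log2 fold change -0.33, adjusted p = 0.285), lowest in ICH replicate 2. The readers Ythdf2 (0.23), Ythdf3 (0.17) and Ythdc1 (0.17) had small positive log2 fold changes, and Hnrnpa2b1 had 65.6, 66.6 and 69.1 FPKM in sham and 69.9 and 36.7 FPKM in ICH (-0.40). In m6A, the authors' deposited table had higher peaks in 7 of the 10 writers and 10 of the 11 erasers and readers, such as Alkbh5 (4), Hnrnpa2b1 (4), Mettl3 (3) and Fto (3). Of all tested genes, 64.8% had a higher and 21.0% a lower peak in that table. Median levels were 3.84 FPKM for writers and 10.4 FPKM for erasers and readers. A higher peak was found in 50.7% of genes not called in RNA at 1 to 5 FPKM and in 76.1% at 5 to 20 FPKM. In the same table by the authors, the writers Cbll1 and Virma and the readers Ythdc1, Ythdf1, Ythdf2 and Ythdf3 each had 1 lower peak, and of these Ythdf2 alone had no higher one. The lower peak of Cbll1 had a log2 IP over input of 2.36 in sham and 0.85 in ICH (difference -1.51, the authors' adjusted p = 1.08e-46) in the authors' deposited table.

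Joined by gene, 323 tested genes changed in RNA only, 9581 in m6A only, 453 in both and 3309 in neither. The m6A ratio has the same input libraries in its denominator as the RNA comparison, so the 2 measures are not independent, and the part of this in the counts was not tested. Of the 677 genes higher in RNA, 293 (43.3%) had a higher and 119 (17.6%) a lower peak. Of the 99 genes lower in RNA, 76 (76.8%) had a higher and 15 (15.2%) a lower peak. Of the genes not called in RNA, 65.8% had a higher and 21.3% a lower peak. Among held calls the shares with a higher peak were 39.9% of the 346 increases and 86.7% of the 15 decreases.

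RNA level differed between these classes and went with the share of genes that had a peak. The median sham level was 1.30 FPKM for genes higher in RNA, 7.81 FPKM for genes lower and 5.46 FPKM for the rest. With mean level at 1 to 5, 5 to 20 and at least 20 FPKM, a higher peak was found in 35.1%, 52.1% and 73.2% of genes higher in RNA and in 50.7%, 76.1% and 86.2% of genes not called. For genes lower in RNA the shares were 60.0%, 91.9% and 88.2%. At each level, genes higher in RNA had a smaller share with a higher peak than uncalled genes had, which is a description with no test. The share with a lower peak was 18.0%, 16.8% and 16.9% for genes higher in RNA, and 1172 of 5983, 1157 of 5039 and 413 of 1868 genes not called had one.

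**Figure D5:**
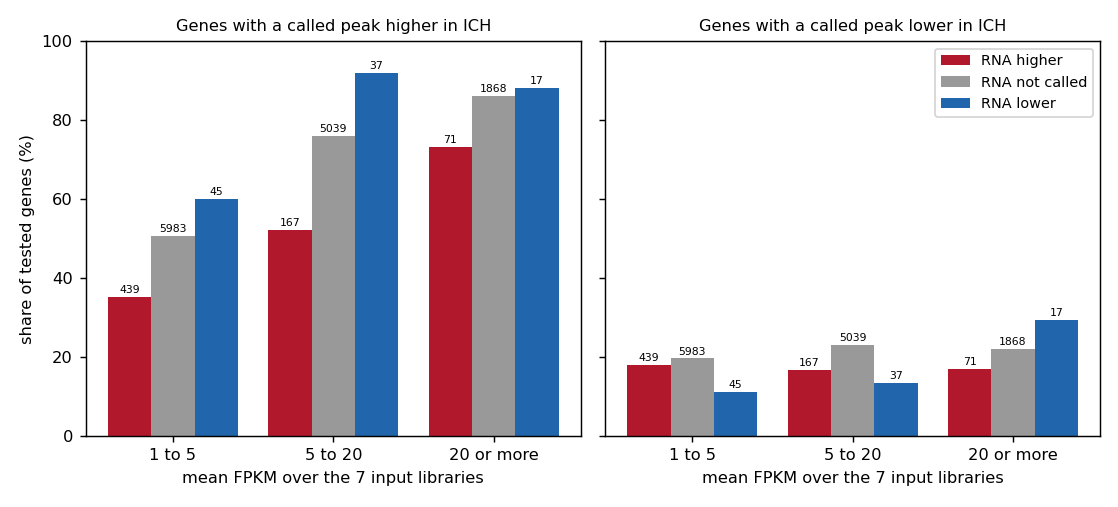
Percent of tested genes with at least 1 m6A peak called higher (left) or lower (right) in ICH in the authors' deposited table, by mean RNA level over the input libraries and by RNA call, with the number of genes above each bar. On the left the bars rise with level for genes higher in RNA (35.1% to 73.2%) and for genes not called (50.7% to 86.2%), and genes higher in RNA have the shortest bar at each level.

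Single genes filled all 4 combinations. Higher in both were Gbp3, whose 5′ UTR peak had a log2 IP over input of -2.43 in sham and 2.13 in ICH (difference 4.57, the authors' adjusted p = 0.000312) in the authors' deposited table while its RNA had 0.961, 1.04 and 1.57 FPKM in sham and 6.21 and 4.88 FPKM in ICH, although Gbp3 shares sequence with other GBP genes. Higher in both, too, was Apobec3, a cytidine deaminase that restricts retroviruses, with a log2 IP over input of 0.57 in sham and 3.56 in ICH (difference 2.99, the authors' adjusted p = 2.56e-05) in the authors' deposited table and RNA at 0.267, 0.33 and 0.25 FPKM in sham and 1.67 and 2.22 FPKM in ICH. In the authors' deposited table C4b had 3 higher peaks, H2-K1 4, Gfap 4 and Slc7a11 4, the longest of Slc7a11 spanning 472366 bp. With RNA higher and m6A lower, an exonic peak of Mki67, whose sham RNA was 0.188 to 0.203 FPKM, had a log2 IP over input of 5.33 in sham and 2.19 in ICH (difference -3.14, the authors' adjusted p = 0.0303) in the authors' deposited table, and all 3 of its called peaks were lower. Man2b1, a lysosomal mannosidase whose RNA was 4.80, 4.68 and 4.27 FPKM in sham and 8.17 and 8.69 FPKM in ICH, had a 3′ UTR peak at a log2 IP over input of 2.18 in sham and -0.51 in ICH (difference -2.69, the authors' adjusted p = 0.000244) in the authors' deposited table. In the same table by the authors, Csf1 and Fgf2 had 2 lower peaks each and no higher one.

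With RNA lower and m6A higher, a 3′ UTR peak of Cdc42ep2, an effector of Cdc42, had a log2 IP over input of 0.97 in sham and 4.55 in ICH (difference 3.57, the authors' adjusted p = 0.000778) in the authors' deposited table, with RNA at 3.80, 3.66 and 3.56 FPKM in sham and 2.49 and 1.68 FPKM in ICH. Its RNA was not called without sham replicate 1, 2 or 3 or ICH replicate 2 or acupuncture replicate 1 or 2. Adora2a, described above, had a 5′ UTR peak at a log2 IP over input of 2.52 in sham and 5.74 in ICH (difference 3.22, the authors' adjusted p = 0.032) in the authors' deposited table. The Adora2a peak spanned 6073 bp. A 3′ UTR peak of Hes5 had a log2 IP over input of 1.87 in sham and 3.35 in ICH (difference 1.48, the authors' adjusted p = 1.74e-09) in the authors' deposited table. Lower in both were Syndig1l, with 3 lower peaks in that table, and Rarb, a retinoic acid receptor of the striatum (RNA 2.49, 1.93 and 2.30 FPKM in sham and 0.879 and 0.846 FPKM in ICH), with a log2 IP over input of 3.75 in sham and 2.66 in ICH (difference -1.08, the authors' adjusted p = 0.0392) in the authors' deposited table. The Rarb peak spanned 243372 bp of the genome, introns included. Spata2l was also lower in both: its peak had a log2 IP over input of 3.29 in sham and 1.54 in ICH (difference -1.75, the authors' adjusted p = 0.00261) in the authors' deposited table and its RNA was 10.1, 10.02 and 9.41 FPKM in sham and 6.49 and 6.78 FPKM in ICH. In RNA, Rarb was not called without sham replicate 1 or 3, and Spata2l was not called without sham replicate 1, 2 or 3. Striatal genes as a whole had peaks on both sides, with a higher peak in 15 and a lower peak in 7 of the 20.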

How the data were processed

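m6A sequencing of mouse brain gave input and IP libraries. Per the submitters' processing notes the tools were fastp, HISAT2, HOMER, StringTie and edgeR, whose versions and roles are not given in the sources used here. FPKM per gene was deposited by the authors for input libraries. Peak lists per group and a table of ICH against sham were deposited by the authors too, with log2 IP over input, log2 differences and p-values. The notes name GRCh38 (hg38), but 96.3% of 25299 gene positions in the files lay within 1000 bp of the RefSeq position on GRCm38, and coordinates are printed as deposited, with GRCm38 as the build. FPKM columns named control and EA were assigned to sham and acupuncture by elimination and by the number in the title; 2 further columns that match no sample were not used. Total FPKM per library was 179810 to 198472.

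Of 31507 genes, 13666 whose mean over the 7 inputs reached 1 FPKM were tested with limma 3.58.1 (R 4.3.3) on log2(FPKM + 1), one mean per group, a mean-variance trend and Benjamini-Hochberg adjustment; the script was tested on simulated data. Peaks were joined by gene identifier and overlaps counted with bedtools 2.31.1. By symbol, 13220 tested genes (96.7%) matched a RefSeq gene, and 9975 tested genes had a promoter sequence (RefSeq, GRCm38). Members, 69 lists and 30 families were chosen with earlier results of these data known. Per list, up to 4 held genes per direction were named, with up to 2 called but not held and 2 uncalled genes with the smallest p; outside lists, the 15 largest held changes per direction, the 10 largest m6A differences per direction (at least 5 FPKM, span at most 1000 bp), 6 genes per combination of RNA and m6A, the m6A machinery, and 8 genes per direction by difference between ICH libraries. Not all of these are printed. Replicate numbers were not taken as pairs. Alternatives changed the pseudocount, filter, scaling, variance model, libraries and thresholds.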

Additional observations from a re-analysis of the deposited data

How the results depend on the processing

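RNA counts (677 higher, 99 lower, 776 in all) stayed within 1.5 times under pseudocounts of 0.1 and 0.5, quantile normalization (557 and 125), median centring (632 and 133), no trend, robust variance and a fit over the 5 sham and ICH libraries. They moved with a mean of at least 5 FPKM (215 and 35, 250 in all), with a log2 fold change of at least 1 (365 and 21, 386 in all), and, for decreases, with no filter (54). With the replicate number as a block they were 325 and 26 (351 in all). Libraries with the same number share only that number (correlations of their deviations were -0.0149 to 0.0941). Leaving out 1 library gave 363 to 2499 higher, 19 to 2713 lower and 387 to 5212 in all; the highest counts came without ICH replicate 1. Fcgrt (0.06, not called) was -0.45 without ICH replicate 1 and 0.57 without ICH replicate 2, and no other named gene changed sign while called. For ICH replicate 1 the fit left 1 ICH library; the cause of the moves was not tested.

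From the authors' deposited table, m6A calls (16152 higher, 4161 lower, 20313 in all) numbered 3746, 858 and 4604 at a difference of at least 1, 10686, 1817 and 12503 for spans of at most 1000 bp, and 10238, 2052 and 12290 in genes with at least 5 FPKM; these settings keep fewer peaks. Genes changed in both (453), RNA only (323) and m6A only (9581) numbered 182, 594 and 2775 at a difference of at least 1 and 216, 76 and 5939 with at least 5 FPKM. With held RNA calls, 189 changed in both and 172 in RNA only. With at least 50% of both peaks shared, 25585 sham peaks overlapped ICH peaks. Read depth is unknown, so the counting error of low FPKM cannot be given.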
